A study of Mus musculus with 12 samples.

Results

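Heat shock proteins and DnaJ chaperones were followed as a family of 65 genes. They were all genes whose name in the scanner files begins with Hsp followed by a digit or by a, b, c, d, e or h, begins with Dnaja, Dnajb or Dnajc, or is Cryab. The array holds 27597 genes or names in all. Of the 65 genes, 59 had a probe well above background on each of the 3 arrays of 1 group or more, and these were tested among 15226 genes. The other 6, Dnajb7, Dnajb8, Dnajb13, Dnajc5b, Dnajc5g and Dnajc6, were not bright enough in any group. Names in the files were updated through RefSeq, so Hsp110 appears here as Hsph1, Dnajc3a as Dnajc3 and Dnajb10 as Dnajb2. The rule also took in 2 genes that are not chaperones of these families, namely Hspbap1, which encodes an Hspb1-binding protein, and Hspc171, now Tmem208. That left 57 chaperone genes with a test.

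RNA came from whole gastrocnemius, a calf muscle, of adult male CD1 mice, with 1 array for each of 12 muscles. There were 3 arrays in each of 4 groups: denervated muscle of Smad4 knockout (KO) mice, denervated muscle of wild-type (WT) mice, control muscle of KO mice and control muscle of WT mice. Denervated muscle was taken 14 days after loss of its nerve, control muscle was innervated, and the experiments used different animals. The titles number the arrays within each group, and whether equal numbers mark muscles of the same mouse could not be settled here. The labels used here do not give the knockout allele, a Cre driver or the cells that lost Smad4, the Smad protein shared by the TGF-beta and BMP pathways.

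Chaperones keep other proteins folded. Small heat shock proteins hold partly unfolded proteins, and in muscle several of them bind the Z-disc, the plate that anchors thin filaments. Hsp70 proteins fold clients in cycles of ATP binding that J-proteins, the DnaJ family, start and that nucleotide exchange factors such as the Hsp110 proteins end, and Hsp90 proteins finish the folding of kinases and receptors. The endoplasmic reticulum (ER) and the mitochondria have their own sets, and in stressed cells the factor Hsf1 switches on many cytosolic chaperone genes through heat shock elements in their promoters.

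Promoters are shown first because 2 groups of members share a regulatory sequence. RefSeq promoter windows of build GRCm38.p6, from 250 bases before to 50 after each gene's start, were matched to 52 of the 65 genes, with 69 windows in all. The heat shock element was searched as GAA, 2 free bases, TTC, 2 free bases and GAA, and the ER stress element, through which Atf6 acts on ER chaperone genes, as CCAAT, 9 free bases and CCACG, both on either strand. The heat shock element stood in windows of 4 of the 52 genes (7.69%), against 0.662% of all 27025 genes with a window. The ER stress element stood in 3 of the 52 (5.77%), against 0.137% of all genes. Of the 8 genes called lower in KO than in WT denervated muscle, 7 had a window, and these letters of the heat shock element were in none of them. With a share of 0.662% over all genes, finding none in 7 genes is the usual outcome and sets these genes apart in nothing. Only this exact string was searched, in windows of 300 bases, so other forms of the element and sites farther away were not read. The part of Hsf1 in these genes was not tested. The 60 bases around each match are given 5′ to 3′ on the gene's own strand, with the fixed letters of the element in capitals. Hspd1 and Hspe1 are neighbours read in opposite directions from one promoter, so their 2 overlapping heat shock elements are the same bases of chr1:55088038-55088097, shown on the plus strand for Hspe1 and on the minus strand for Hspd1. The Dnajb6 stretch is chr5:29735828-29735887 on the plus strand and the Hsph1 stretch chr5:149636266-149636325 on the minus strand. The ER stress elements lie at chr2:34772004-34772063 on the plus strand for Hspa5, at chr14:118937806-118937865 on the plus strand for Dnajc3, and at chr10:86705618-86705677 and chr10:86705513-86705572 on the minus strand for Hsp90b1.
Hspe1: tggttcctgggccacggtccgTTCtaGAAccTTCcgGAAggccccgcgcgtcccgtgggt
Hspd1: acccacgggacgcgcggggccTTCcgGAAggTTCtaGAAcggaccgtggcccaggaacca
Dnajb6: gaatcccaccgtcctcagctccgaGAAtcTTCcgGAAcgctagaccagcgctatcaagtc
Hsph1: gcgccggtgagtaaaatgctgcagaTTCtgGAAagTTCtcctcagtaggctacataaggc
Hspa5: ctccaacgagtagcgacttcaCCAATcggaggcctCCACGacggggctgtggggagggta
Dnajc3: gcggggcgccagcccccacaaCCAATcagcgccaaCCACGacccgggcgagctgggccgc
Hsp90b1, first: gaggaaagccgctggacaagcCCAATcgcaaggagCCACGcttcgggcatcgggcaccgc
Hsp90b1, second: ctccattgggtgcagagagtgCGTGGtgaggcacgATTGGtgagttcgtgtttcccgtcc

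Levels are log2 intensity minus the array's 75th percentile, so 0 is the intensity at that percentile and 1 unit is a doubling. They compare arrays for 1 probe, not probes with each other. Between 50.9% and 57% of spots on an array were well above background, and no spot was saturated. Smad4 averaged 1.90 ± 0.14 in KO denervated and 3.32 ± 0.16 in WT denervated muscle, and 2.33 ± 0.12 in KO control and 3.79 ± 0.22 in WT control muscle (SD, n = 3 each), so the probe followed the labels. The 6 markers of skeletal muscle fibres had a mean level of 7.32 to 7.63 by array in KO denervated, 7.53 to 8.04 in WT denervated, 8.24 to 8.37 in KO control and 7.91 to 8.30 in WT control muscle. In whole muscle, fewer cells of a type and less RNA per cell cannot be told apart. A gene was called where limma's test across all 15226 genes gave a Benjamini-Hochberg adjusted p under 0.05.

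The clearest difference between the genotypes lay in denervated muscle, where 8 chaperone genes were lower in KO than in WT and none was higher. They were 5 of the 8 small heat shock proteins (Hspb1, Cryab, Hspb6, Hspb7 and Hspb8), the stress-inducible Hsp70 gene Hspa1a, and the J-proteins Dnaja4 and Dnajb4. These 8 of 59 are 13.6% of the family, where 2.19% of all genes tested were called in either direction, 0.959% higher and 1.23% lower. In 14 of the 59 the KO and WT arrays did not overlap, a share close to the 21.7% of all genes tested. The median log2 difference was -0.12 over the 59 genes and -0.91 over the 8 small heat shock proteins, against -0.01 over all genes tested.

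Hspb7, a small heat shock protein of heart and skeletal muscle that binds filamin C, had levels of 4.37, 3.12 and 4.40 in KO denervated muscle, against 5.68, 5.30 and 5.75 in WT denervated muscle. Its levels were 3.89, 4.2 and 4.03 in KO control and 3.44, 4.0 and 3.93 in WT control muscle. All KO denervated arrays lay below all WT denervated arrays, and the control groups overlapped. The log2 difference, KO minus WT, was -1.61 ± 0.31 (SE) in denervated muscle, about 3.06-fold lower (limma, adjusted p = 0.0225). The second Hspb7 probe gave -1.71.

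Hspb6 (Hsp20), a phosphoprotein of muscle, was 3.79, 2.27 and 2.70 in KO denervated muscle, against 4.70, 4.44 and 4.44 in WT denervated muscle. In control muscle it was 5.23, 5.37 and 5.32 in KO and 4.91, 5.60 and 4.96 in WT. The KO denervated arrays were the lowest of all 12, and their spread was wide. The log2 difference in denervated muscle was -1.61 ± 0.32 (limma, adjusted p = 0.0280).

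Hspb1 (Hsp27), which associates with actin, was 6.14, 5.16 and 5.94 in KO denervated muscle, against 6.79, 6.97 and 6.48 in WT denervated muscle. The groups did not overlap, and the log2 difference was -1.0 ± 0.23 (limma, adjusted p = 0.0482). Hspb8 (Hsp22), a partner of Bag3 in chaperone-assisted autophagy, was 6.14, 6.53 and 6.5 in KO denervated muscle, against 7.25, 7.25 and 7.28 in WT denervated muscle. The WT denervated arrays agreed closely and lay above every KO denervated array, with a log2 difference of -0.87 ± 0.17 (limma, adjusted p = 0.0230).

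Cryab (alpha B crystallin), which protects desmin and the Z-disc, was 6.37, 5.85 and 6.12 in KO denervated muscle, against 7.10, 7.30 and 6.82 in WT denervated muscle, on the brighter of its 2 probes. The groups did not overlap there, and the log2 difference was -0.96 ± 0.19 (limma, adjusted p = 0.0235). The dimmer probe, at chr9:50505406-50505465 of build mm8 and 3159 bases from the brighter one at chr9:50508565-50508624, gave 0.31 in the same comparison, so the 2 Cryab probes differed in sign. With the probes averaged, the Cryab call was lost.

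**Figure D1:**
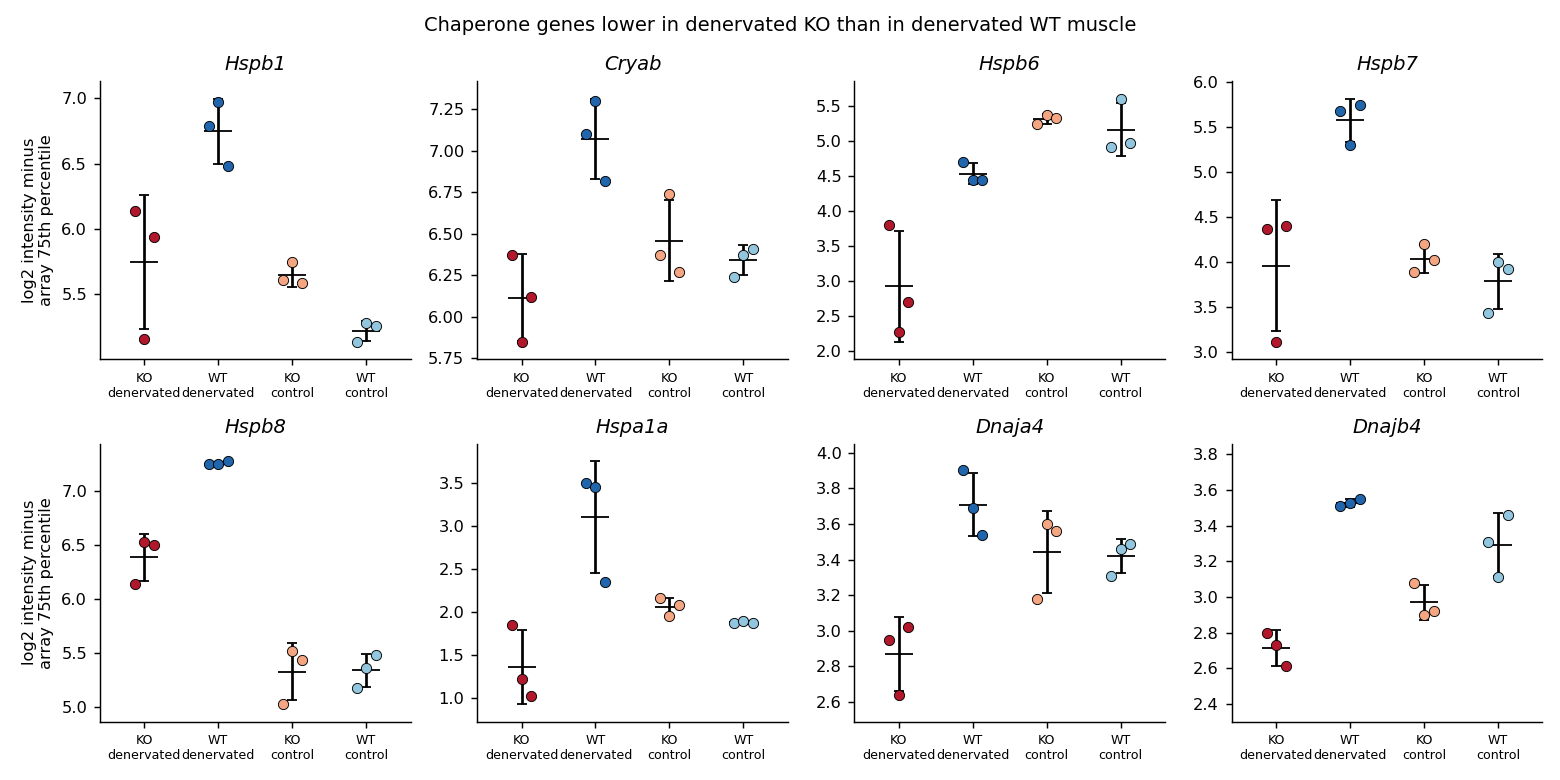
Levels (log2 intensity minus the array's 75th percentile) of the 8 genes called lower in KO than in WT denervated muscle, with a point per array and the mean ± SD per group (n = 3). In every panel the KO denervated arrays lie below the WT denervated arrays, and the y axes differ between panels and do not start at 0.

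Hspa1a was 1.85, 1.22 and 1.02 in KO denervated muscle, against 3.50, 3.46 and 2.35 in WT denervated muscle. It was 2.16, 1.96 and 2.08 in KO control and 1.87, 1.90 and 1.88 in WT control muscle. WT denervated arrays were thus the highest and KO denervated arrays the lowest of the 12, with a log2 difference of -1.74 ± 0.29 between them (limma, adjusted p = 0.0117). All 4 Hspa1a probes gave differences between -1.92 and -1.54. Hspa1b is a near-identical copy for which no probe is named, so these probes may read both genes.

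Dnajb4, a type B J-protein, was 2.80, 2.73 and 2.61 in KO denervated muscle, against 3.51, 3.53 and 3.55 in WT denervated muscle. In control muscle it was 3.08, 2.90 and 2.92 in KO and 3.31, 3.11 and 3.46 in WT, again with no overlap, but the control difference of -0.32 did not pass the test. The denervated difference was -0.81 ± 0.13 (limma, adjusted p = 0.00924). Dnaja4, a type A J-protein, was 2.95, 2.64 and 3.02 in KO denervated muscle, against 3.90, 3.69 and 3.54 in WT denervated muscle, a log2 difference of -0.84 ± 0.17 (limma, adjusted p = 0.0261) with no overlap. The dimmer probes gave -0.77 and -0.11 for Dnajb4 and -1.18 for Dnaja4.

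The 3 small heat shock proteins without a call in denervated muscle were Hspb2, which sits beside Cryab and binds the myotonic dystrophy kinase, its partner Hspb3, and the testis gene Hspb9. Their log2 differences, KO minus WT, were -0.12 (95% interval -0.49 to 0.26) for Hspb2, 0.42 (-0.01 to 0.86) for Hspb3 and -0.08 (-0.71 to 0.55) for Hspb9. Intervals of the constitutive and organelle chaperones were of like width. The interval was -0.29 to 0.43 for Hspa8, -0.70 to 0.36 for Hsp90aa1, -0.52 to 0.23 for Hsp90ab1, -0.31 to 0.30 for Hspa5 and -0.58 to 0.13 for Hspd1.

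**Figure D2:**
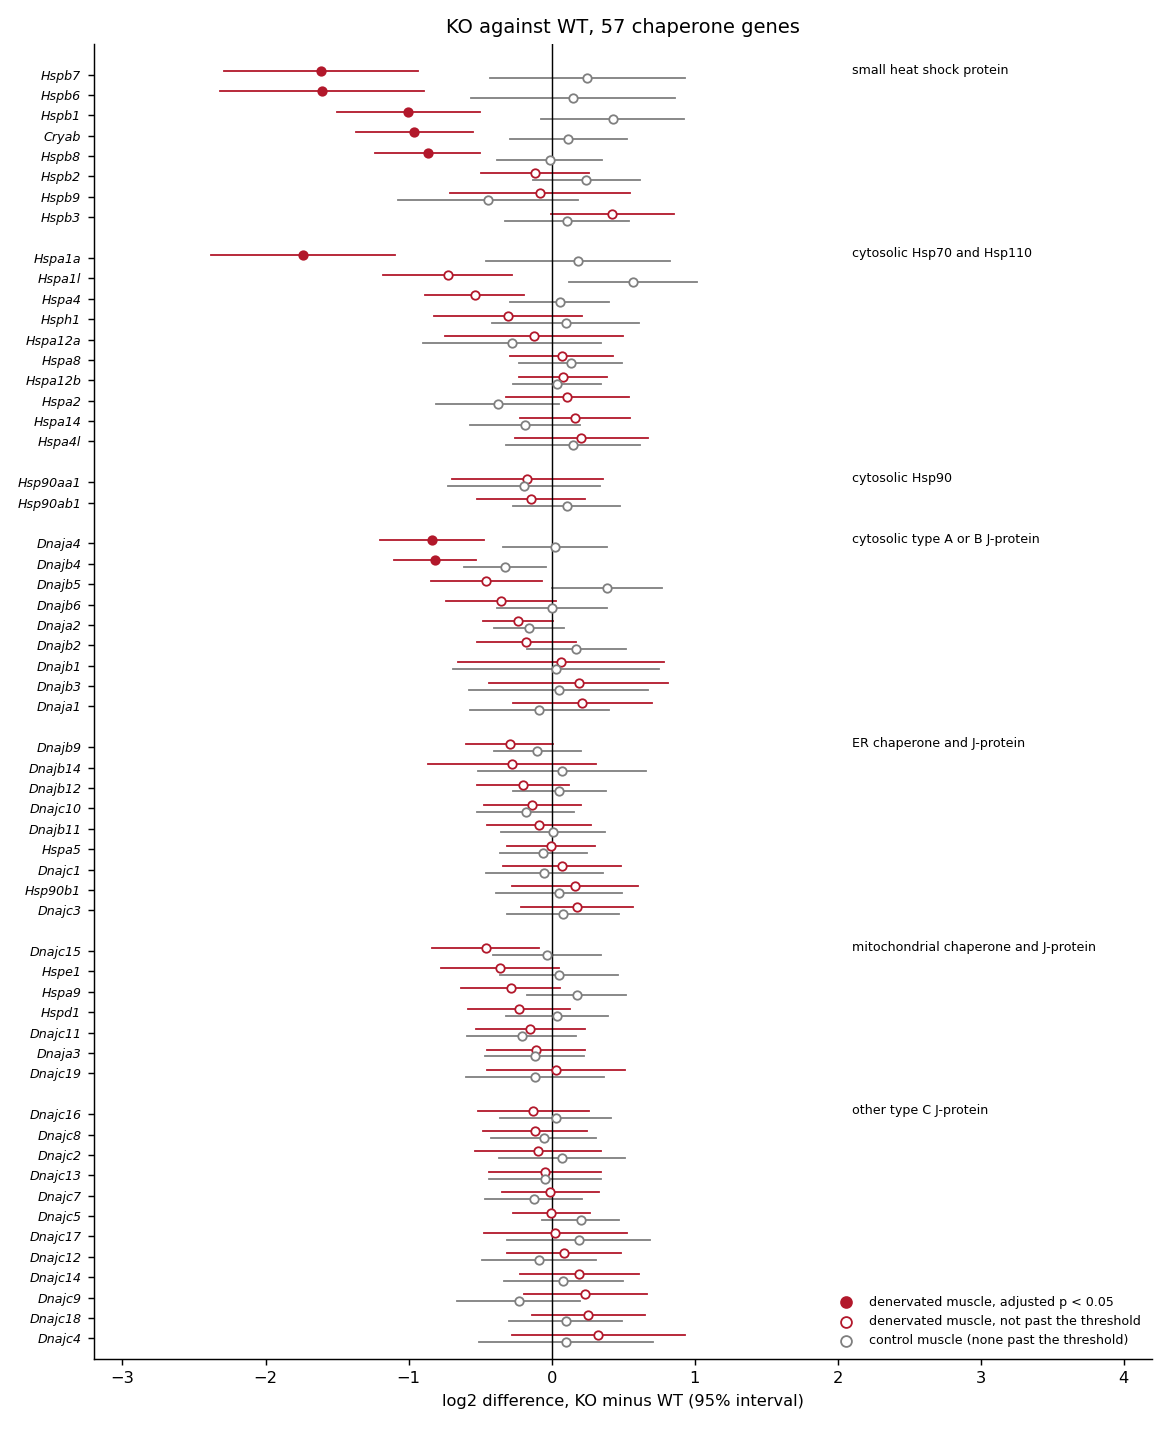
Log2 difference, KO minus WT, of 57 chaperone genes by class, in denervated muscle (red) and control muscle (grey), with 95% intervals from limma and filled points where the adjusted p was under 0.05. The 8 filled points all lie left of 0, and 5 of them are small heat shock proteins.

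These 8 calls rested on few arrays. All 8 differences stayed below 0 in the 22 alternative fits, from -2.12 to -0.33, and within the glass slides that held both KO and WT denervated arrays they ran from -1.65 to -0.65 on slide 1 and from -2.40 to -0.73 on slide 4, signs that the lack of overlap between the groups fixes. Dnajb4 alone kept its call with each array left out in turn. Without KO denervated replicate 2, the lowest KO denervated array for Hspb1, Hspb6, Hspb7, Cryab and Dnaja4, Dnajb4 and Hspb7 kept theirs and the other 6 had limma adjusted p values of 0.0504 to 0.0974. Without WT denervated replicate 2, Dnajb4 alone kept its call, and the others lay between 0.0510 and 0.155. Without WT denervated replicate 1, Dnajb4 and Hspa1a kept theirs, and the others lay between 0.0633 and 0.123. Without WT denervated replicate 3 or KO denervated replicate 3, 4 calls were left in each case, with adjusted p up to 0.0731 and 0.0943 among those lost. Without KO denervated replicate 1 only the Hspb8 call ended, at 0.0610. Hspb1 also lost its call without any 1 of the 6 control arrays, with adjusted p of 0.0638 to 0.0740. With the slide as a block the Hspb1 call ended (adjusted p = 0.0573) and the other 7 were kept. With the probes of a gene averaged, 6 of the 8 were kept, and the differences were -0.33 for Cryab (adjusted p = 0.286) and -1.01 for Dnaja4 (adjusted p = 0.394). The 2 Dnaja4 probes agreed in sign, at -0.84 and -1.18, unlike those of Cryab. For Dnaja4 the loss of the call was thus not a disagreement in direction between probes. Normexp background correction called none of the 8.

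Fast fibre markers were read in the same arrays. The mean level of 8 fast fibre genes was 7.72 to 8.07 by array in KO denervated and 8.09 to 8.56 in WT denervated muscle, and 8.63 to 8.72 in KO control and 8.11 to 8.73 in WT control muscle. With denervation 6 of the 8 fell in KO and 1 of 8 in WT, and none was called between KO and WT denervated muscle. In 5 of the 11 marker lists read, fast fibre genes among them, the array means of KO and WT denervated muscle did not overlap. The means were also lower in KO denervated than in WT denervated muscle for the 3 erythrocyte genes, at -1.71 to -0.81 against -0.04 to 0.28, and for the 3 neutrophil genes, at -1.51 to -1.21 against -1.07 to 1.62. They were higher in KO for the 6 fibroblast genes, at 3.63 to 3.89 against 3.22 to 3.40, and for the 6 Schwann cell genes, at -1.48 to -1.29 against -2.11 to -1.65. The part of these markers in the difference between KO and WT was not tested.

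In control muscle no chaperone gene was called between KO and WT by limma, where 0.00657% of all genes tested were called. At an unadjusted p under 0.05 there were 3 of the 59, with Hspa1l and Dnajb5 higher in KO and Dnajb4 lower, where 4.05% of all genes tested passed that limit, 2.36% of all genes with lower levels in KO. Groups did not overlap in 9 of the 59 genes, against 8.55% of all genes. The control differences of the small heat shock proteins ran from -0.45 for Hspb9 to 0.43 for Hspb1, with a median of 0.13.

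Whether the genotypes responded differently to denervation was tested as the difference of the 2 responses, KO minus WT. limma called none of the 59 genes and 0.184% of all genes, 0.0985% with a more positive and 0.0854% with a more negative response in KO. At an unadjusted p under 0.05 there were 11 of 59, all with a smaller or more negative response in KO, where 9.44% of all genes tested passed that limit and 4.87% passed it with a more negative response. The difference of responses was -1.92 ± 0.41 for Hspa1a (adjusted p = 0.128), -1.86 ± 0.44 for Hspb7 (adjusted p = 0.152), -1.76 ± 0.46 for Hspb6 (adjusted p = 0.201), -1.43 ± 0.32 for Hspb1 (adjusted p = 0.140) and -1.07 ± 0.26 for Cryab (adjusted p = 0.168) in limma's fit. Without WT denervated replicate 3 Hspa1a was called at -2.30 (adjusted p = 0.0241), and without KO denervated replicate 1 Hspb6 was called at -2.19 (adjusted p = 0.0213). These comparisons share the denervated arrays with the one above and are not separate evidence for it.

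Denervation itself moved most of the family in both genotypes, up in some classes and down in others. In KO muscle 35 of the 59 genes were called, 20 higher and 15 lower, which is 59.3% against 46.9% of all genes tested (23.7% higher and 23.2% lower). In WT muscle 36 were called, 25 higher and 11 lower, which is 61.0% against 39.3% of all genes (18.7% higher and 20.6% lower). Denervated and control arrays did not overlap for 41 genes in KO and 45 in WT, where the shares over all genes were 56.7% and 53%. The median log2 difference was -0.08 in KO and 0.32 in WT, against 0.00 and -0.02 over all genes. There were 17 genes called higher in both genotypes and 9 called lower in both, and no gene was called in opposite directions. The share of all genes called in both genotypes was not computed, so these counts cannot be read as particular to the family. With the slide as a block, 33 of the 35 calls in KO and 24 of the 36 in WT were kept. WT denervated replicates 2 and 3 were on slide 4, while the WT control arrays were on slides 1, 2 and 3, scanned on another day. Slide 1 alone held both WT groups, so in WT denervation cannot be fully told apart from slide and scan day. In KO, slides 3 and 4 each held both groups.

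**Figure D3:**
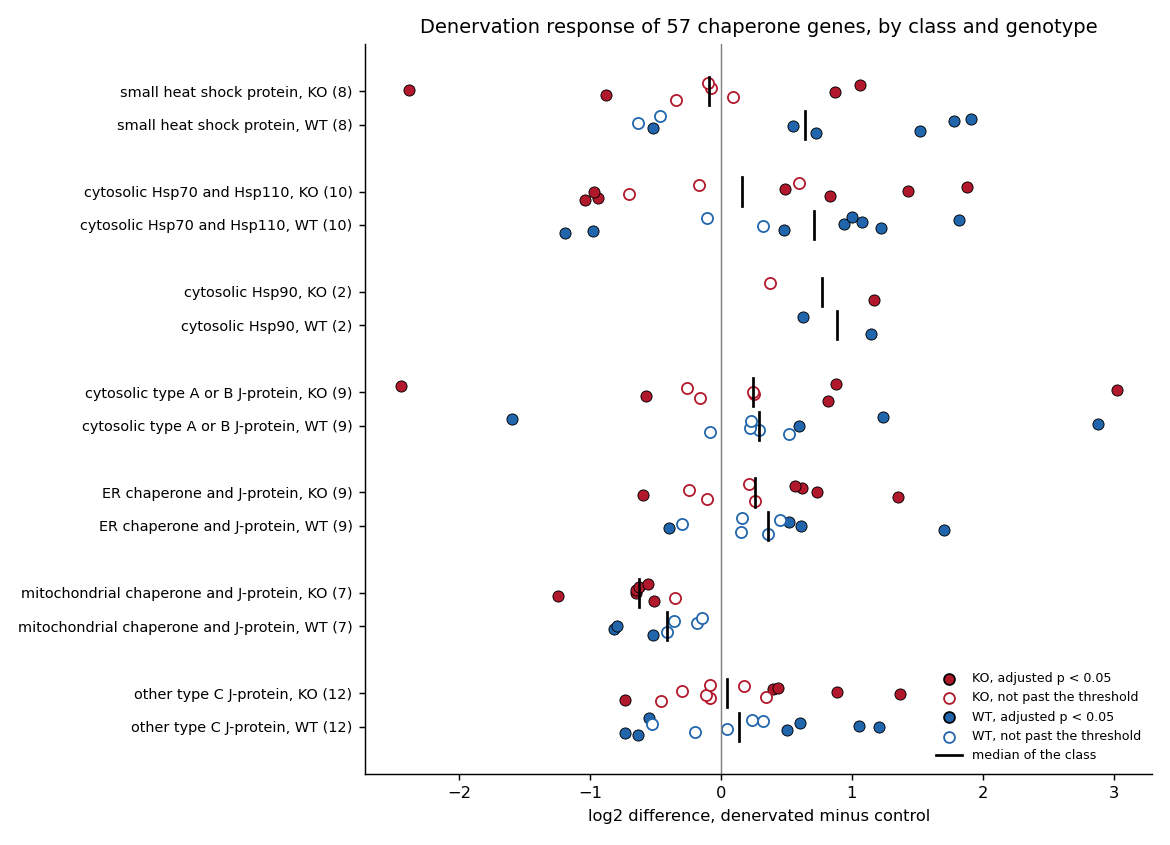
Log2 difference, denervated minus control, of 57 chaperone genes by class, with KO (red) above WT (blue), a point per gene, filled points for an adjusted p under 0.05 and a black line at the class median. All 7 mitochondrial genes lie left of 0 in both genotypes, and the small heat shock proteins have a median of -0.09 in KO and 0.64 in WT.

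Among the small heat shock proteins, denervation raised 2 of 8 and lowered 2 in KO muscle, and raised 5 and lowered 1 in WT muscle. Hspb8 rose in both, by 1.06 ± 0.17 in KO (limma, adjusted p = 0.000414) and by 1.91 ± 0.17 in WT (limma, adjusted p = 9.12e-06). Hspb7 rose by 1.78 ± 0.31 in WT (limma, adjusted p = 0.00105), and its difference in KO was -0.08 ± 0.31. Hspb1 rose by 1.52 ± 0.23 in WT (limma, adjusted p = 0.000395), and its difference in KO was 0.10 ± 0.23. Hspb6 fell by 2.38 ± 0.32 in KO (limma, adjusted p = 0.000157), and its difference in WT was -0.63 ± 0.32 (adjusted p = 0.148).

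Cryab rose by 0.73 ± 0.19 in WT on its brighter probe (limma, adjusted p = 0.00959), with a difference of -0.35 in KO. Its dimmer probe gave -1.94 in WT and -1.37 in KO, so the direction of Cryab in WT depended on the probe. With the probes averaged, Cryab was called lower in KO, at -0.86 (limma, adjusted p = 0.000684). The averaged value was called lower in WT too, at -0.61 (limma, adjusted p = 0.00697). Hspb2 was 4.55, 4.16 and 4.04 in KO denervated against 5.23, 5.26 and 4.89 in KO control muscle, and 4.49, 4.24 and 4.36 in WT denervated against 4.72, 5.0 and 4.94 in WT control muscle. It fell in both, by 0.88 in KO (limma, adjusted p = 0.00161) and by 0.52 in WT (limma, adjusted p = 0.0321). Hspb3 rose by 0.87 in KO (limma, adjusted p = 0.00394) and by 0.55 in WT (adjusted p = 0.0445). In WT the Hspb3 call ended with the replicate number as a block (adjusted p = 0.0634) and without any 1 of 9 arrays, 5 of them from WT (adjusted p 0.0504 to 0.142). The Hspb2 call in WT ended once WT denervated replicate 2 or 3 was left out, or WT control replicate 2 or 3 (adjusted p 0.0678 to 0.100). With the slide as a block the WT calls of both ended, Hspb3 at 0.36 (adjusted p = 0.235) and Hspb2 at -0.50 (adjusted p = 0.102).

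Of the 10 cytosolic Hsp70 and Hsp110 genes, 4 rose and 3 fell in KO muscle, and 6 rose and 2 fell in WT muscle. The Hsp110 gene Hspa4l was 1.31, 1.82 and 1.19 in KO denervated against -0.46, -0.57 and -0.30 in KO control muscle, and 1.1, 1.65 and 0.93 in WT denervated against -0.70, -0.48 and -0.60 in WT control muscle. It had the largest rise of the class, 1.88 ± 0.21 in KO and 1.82 ± 0.21 in WT (limma, adjusted p = 4.25e-05 and 7.05e-05). Hspa2, known from spermatocytes, rose by 1.43 in KO and 0.94 in WT (limma, adjusted p = 0.000167 and 0.00318). Hsph1, another exchange factor, rose by 1.00 in WT (limma, adjusted p = 0.00627) and differed by 0.60 in KO (adjusted p = 0.0560).

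Hspa1a rose by 1.22 ± 0.29 in WT (limma, adjusted p = 0.00700), and its difference in KO was -0.70 ± 0.29 (adjusted p = 0.0684). Over its 4 probes the KO differences ran from -1.85 to -0.65. With the probes averaged, Hspa1a was called lower in KO, at -1.05 (limma, adjusted p = 0.0149). Its neighbour Hspa1l, a testis Hsp70, fell by 0.97 in KO (limma, adjusted p = 0.00264) and differed by 0.32 in WT (adjusted p = 0.233). Hspa12b, a distant Hsp70 relative of endothelium, fell by 0.94 in KO and by 0.98 in WT (limma, adjusted p = 0.000282 and 0.000289). Endothelial markers fell too, 6 of 8 in KO and 5 of 8 in WT, with a mean level by array of 0.26 to 0.47 in KO denervated against 1.33 to 1.43 in KO control muscle, and of -0.87 to 0.66 in WT denervated against 1.08 to 1.35 in WT control muscle. Their part in the Hspa12b result was not tested. Hspa8, the constitutive Hsc70, differed by -0.17 in KO (adjusted p = 0.424) and by -0.11 in WT (adjusted p = 0.640).

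Of the 2 cytosolic Hsp90 genes, the inducible Hsp90aa1 was 4.41, 4.84 and 4.52 in KO denervated against 3.58, 3.24 and 3.43 in KO control muscle, and 4.68, 5.28 and 4.32 in WT denervated against 3.44, 3.45 and 3.94 in WT control muscle. Denervated and control arrays did not overlap in either genotype. It rose by 1.17 in KO and by 1.15 in WT (limma, adjusted p = 0.00225 and 0.00330). The constitutive Hsp90ab1 rose by 0.63 in WT (limma, adjusted p = 0.0137), a call that ended when either WT denervated replicate 2 or WT control replicate 1 was left out (adjusted p 0.0539 to 0.0561), and it differed by 0.38 in KO (adjusted p = 0.0896).

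Of the 9 cytosolic type A and B J-proteins tested, 3 rose and 2 fell in KO muscle, and 3 rose and 1 fell in WT muscle. Dnajb5, whose protein binds the deacetylase Hdac4, was 0.70, 0.56 and 0.85 in KO denervated against 3.06, 3.21 and 3.17 in KO control muscle, and 1.06, 1.08 and 1.34 in WT denervated against 2.42, 3.1 and 2.75 in WT control muscle. The groups lay far apart in both genotypes. It fell by 2.44 ± 0.18 in KO and by 1.60 ± 0.18 in WT (limma, adjusted p = 2.03e-06 and 4.62e-05), the largest fall of a family member in each genotype. The difference of those responses was -0.84 (limma, adjusted p = 0.264).

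Dnajb6, a J-protein of the Z-disc, rose by 0.88 in KO and 1.24 in WT (limma, adjusted p = 0.00187 and 0.000278). Dnajb3 was not well above background on any control array and passed the filter only through the denervated groups. As bounds, it was at least 2.92-fold higher in KO denervated than in KO control muscle. In WT it was at least 2.96-fold higher in denervated than in control muscle. Its calls are in the counts above, but the filter favoured a rise, so they are no support for one. Normexp background correction ended both calls (limma, adjusted p = 0.158 in KO and 0.174 in WT). Dnaja1 rose by 0.82 in KO (limma, adjusted p = 0.0105) and differed by 0.52 in WT (adjusted p = 0.0852). That is its brightest probe, and over its 3 probes the differences ran from 0.03 to 0.82 in KO and from -0.32 to 0.52 in WT. With the probes averaged the Dnaja1 difference in KO was 0.43 (adjusted p = 0.123). Dnaja4 fell by 0.57 in KO (limma, adjusted p = 0.0148), a call that ended once KO denervated replicate 2 was left out, or KO control replicate 2 or 3 (adjusted p 0.0512 to 0.0563), and differed by 0.29 in WT. Singly, its 2 probes gave -0.57 and -0.12 in KO. With the probes averaged the value was -1.16 (limma, adjusted p = 0.105). That lies outside the range of the probes, so it does not measure the size of the fall. With the slide as a block, Dnaja4 was called higher in denervated than in control WT muscle, at 0.56 (limma, adjusted p = 0.0213). Dnajb1 (Hsp40) differed by 0.26 in KO and 0.22 in WT, with overlapping groups.

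The 7 mitochondrial members all had lower levels in denervated than in control muscle. Of them, 6 fell in KO and 3 in WT, and none rose. The WT falls were those of Dnaja3, Dnajc15 and Dnajc19, and only Dnajc15 kept its WT call in every alternative. Dnaja3 fell by 0.51 in KO and by 0.52 in WT (limma, adjusted p = 0.0205 and 0.0225). Leaving out any 1 of 5 WT arrays ended its WT call (adjusted p 0.0502 to 0.0761). Blocking on slide ended it too, at 0.155. Its KO call ended once KO denervated replicate 2 or 3, or KO control replicate 2, was left out (adjusted p 0.0504 to 0.0808). Hspa9 (mortalin), the mitochondrial Hsp70, was 4.89, 5.28 and 4.90 in KO denervated against 5.70, 5.78 and 5.53 in KO control muscle, and 5.22, 5.55 and 5.17 in WT denervated against 5.42, 5.54 and 5.53 in WT control muscle. It fell by 0.65 in KO (limma, adjusted p = 0.00608), while the WT groups overlapped. The import motor protein Dnajc15 fell in both, by 1.24 in KO and by 0.82 in WT (limma, adjusted p = 0.000168 and 0.00329).

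The chaperonin genes Hspd1 (Hsp60) and Hspe1 (Hsp10), which share the promoter shown above, both fell in KO muscle. Hspd1 was 4.78, 5.16 and 4.87 in KO denervated against 5.56, 5.58 and 5.54 in KO control muscle, and it fell by 0.62 (limma, adjusted p = 0.00873). Hspe1 was 3.02, 3.50 and 3.13 in KO denervated against 4.05, 3.77 and 3.50 in KO control muscle, with 1 value overlapping, and it fell by 0.56 (limma, adjusted p = 0.0303). The Hspe1 call ended once KO denervated replicate 1 or 3 was left out, or KO control replicate 1 or 2 (adjusted p 0.0661 to 0.112). In WT the differences were -0.36 for Hspd1 (adjusted p = 0.101) and -0.14 for Hspe1 (adjusted p = 0.586).

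Dnajc19, another import motor protein, fell by 0.65 in KO and by 0.79 in WT on its brightest probe (limma, adjusted p = 0.0314 and 0.0146), while its dimmest probe gave 0.51 and 0.18. In KO that call ended without any 1 of 5 of the 6 KO arrays (adjusted p 0.0510 to 0.114), the exception being KO denervated replicate 2. In WT it ended once WT denervated replicate 1 was left out, or WT control replicate 3 (adjusted p 0.0523 to 0.0598). Both calls ended with the probes averaged, at -0.08 in KO (adjusted p = 0.767) and -0.19 in WT (adjusted p = 0.495).

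Of the 9 members placed in the ER class here, 4 rose and 1 fell in KO muscle, and 3 rose and 1 fell in WT muscle. The class may not hold every member of the ER, and Dnajc14, Dnajc16 and Dnajc18 were counted with the other type C J-proteins. The membrane J-protein Dnajb14 was -0.84, -1.35 and -0.93 in KO denervated against -2.65, -2.32 and -2.20 in KO control muscle, and -0.51, -0.66 and -1.11 in WT denervated against -2.05, -2.28 and -3.06 in WT control muscle. It rose by 1.35 in KO and 1.70 in WT (limma, adjusted p = 0.00178 and 0.000553). Dnajb9 (ERdj4), an ER-stress gene, fell by 0.59 in KO (limma, adjusted p = 0.00492) and by 0.40 in WT (adjusted p = 0.0409), the WT call ending without any 1 of 8 arrays, 5 of them from WT (adjusted p 0.0508 to 0.129), with the slide as a block (adjusted p = 0.131) and with the probes averaged (adjusted p = 0.0608).

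The 3 genes with an ER stress element in their windows had higher mean levels in denervated than in control muscle in both genotypes, but not all of these differences passed the test. Dnajc3 (P58IPK), an inhibitor of the kinase PERK, rose by 0.62 in KO and by 0.52 in WT (limma, adjusted p = 0.0138 and 0.0361). The Dnajc3 call in KO ended once KO denervated replicate 2 was left out, or KO control replicate 3 (adjusted p 0.0540 to 0.0542). In WT it ended without any 1 of 5 of the 6 WT arrays, the exception being WT control replicate 3 (adjusted p 0.0685 to 0.121). One of its 4 probes gave -0.09 in KO and -0.27 in WT. The Dnajc3 call in WT also ended with the slide as a block (adjusted p = 0.0733) and with the probes averaged (adjusted p = 0.0529). Hsp90b1 (Grp94) rose by 0.56 in KO (limma, adjusted p = 0.0373), a call that ended once KO denervated replicate 1 or 2 was left out, or KO control replicate 2 or 3 (adjusted p 0.0741 to 0.132), and differed by 0.45 in WT (adjusted p = 0.0962). With the slide as a block the Hsp90b1 call in KO ended (adjusted p = 0.0511), and with its probes averaged the difference was 0.36 (adjusted p = 0.130). Hspa5 (BiP), the ER Hsp70, differed by 0.21 in KO (adjusted p = 0.230) and 0.16 in WT (adjusted p = 0.392).

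**Figure D4:**
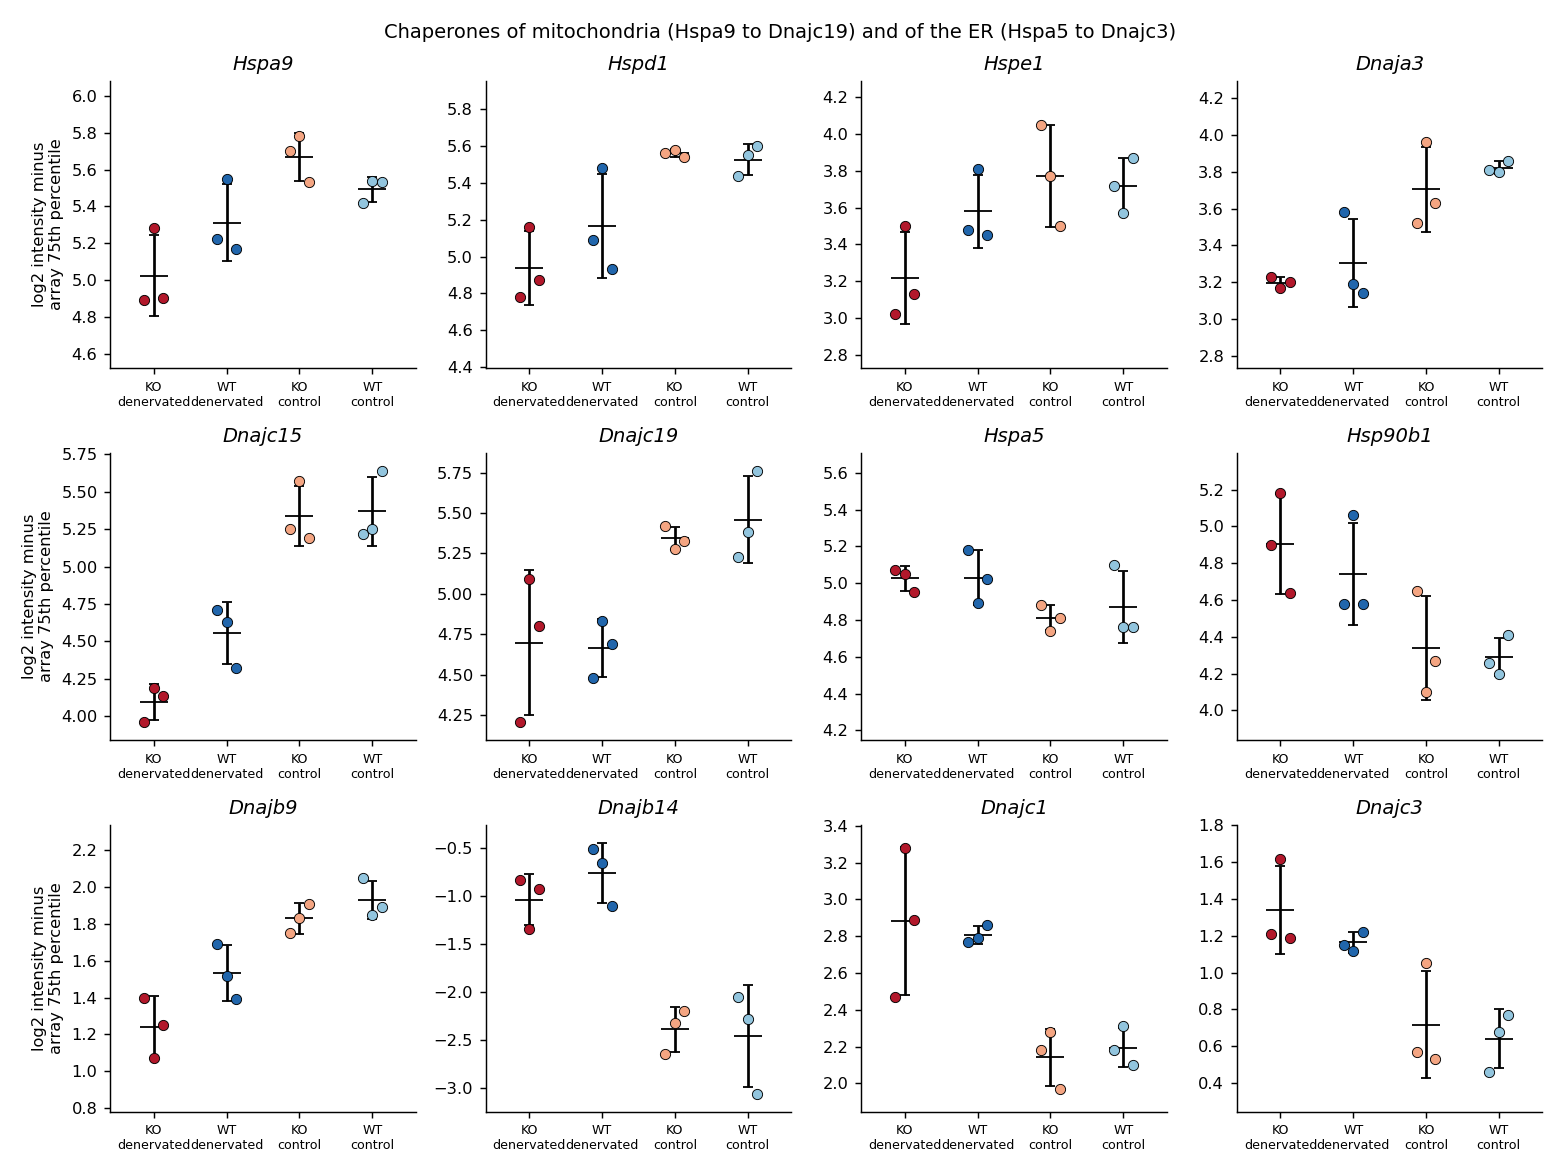
Levels (log2 intensity minus the array's 75th percentile) of 6 mitochondrial and 6 ER chaperone genes, with a point per array and the mean ± SD per group (n = 3). Denervated arrays of Dnajc15 lie below and those of Dnajb14 above all control arrays of the same genotype, and the y axes differ between panels and do not start at 0.

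Of the 12 other type C J-proteins tested, 4 rose and 1 fell in KO muscle, and 4 rose and 3 fell in WT muscle. Dnajc18 rose by 1.37 in KO and 1.21 in WT (limma, adjusted p = 0.000120 and 0.000373). The ribosome-associated Dnajc2 rose by 0.89 in KO and 1.05 in WT (limma, adjusted p = 0.00412 and 0.00194). Dnajc13 (RME-8), an endosomal protein, fell by 0.73 in both genotypes (limma, adjusted p = 0.00617 in KO and 0.00772 in WT), and with the slide as a block the WT difference was -0.53 (adjusted p = 0.0578). The non-chaperone member Hspbap1 rose by 1.1 in both (limma, adjusted p = 0.000911 in KO and 0.00121 in WT).

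Partners of the family from fixed lists were read beside the shares of all genes called for denervation. Those shares were 46.9% in KO (23.7% higher and 23.2% lower) and 39.3% in WT (18.7% higher and 20.6% lower). The regulators and co-chaperones, and the TRiC and prefoldin genes below, were called less often than all genes in both genotypes. Of 26 regulators and co-chaperones, 3 rose and 6 fell in KO muscle and 4 rose and 4 fell in WT muscle. The Hsp90 co-chaperone Fkbp5, a glucocorticoid-induced gene, fell by 2.51 in KO and by 1.56 in WT, and Smyd1, which works with Hsp90 on myosin, fell by 1.33 and by 1.14. Stub1, the ubiquitin ligase CHIP, fell by 0.55 in KO and by 0.45 in WT. Limma adjusted p values of these calls ran from 1.28e-05 to 0.0195. The factor Hsf1 differed by -0.62 in KO and -0.05 in WT and Bag3 by -0.26 and 0.29, with no call. Unc45b, a myosin chaperone, fell by 0.41 in KO (limma, adjusted p = 0.0467) and differed by -0.33 in WT.

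Of 14 mitochondrial folding and protease genes, 8 fell in KO and 5 in WT, and none rose. Trap1, the mitochondrial Hsp90, fell by 1.30 in KO and by 0.76 in WT (limma, adjusted p = 0.000357 and 0.0117). Of 21 ER folding genes, 10 rose and 3 fell in KO, and 8 rose and 3 fell in WT. Canx, an ER lectin chaperone, rose by 0.76 in KO and 0.67 in WT (limma, adjusted p = 0.00254 and 0.00650). Of 15 subunits of the cytosolic chaperonin TRiC and of prefoldin, 4 rose and 1 fell in KO, and 3 rose and 1 fell in WT, with Cct3 up by 0.49 in KO and 0.65 in WT (limma, adjusted p = 0.0245 and 0.00800).

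Of 7 genes listed as Z-disc clients and partners of small heat shock proteins, Bag3 again among them, 1 rose and 4 fell in KO and 1 rose and 3 fell in WT. The list does not require direct binding to a small heat shock protein. Flnc, the filamin C gene, rose by 0.62 in KO and 1.33 in WT (limma, adjusted p = 0.00627 and 6.24e-05). Ldb3, a Z-disc scaffold, fell by 2.80 in KO and by 1.45 in WT (limma, adjusted p = 1.78e-05 and 0.00202). Among the genes of the 5 partner lists it was the only one called between KO and WT denervated muscle, at -1.25 (limma, adjusted p = 0.0456).

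The 3 erythrocyte markers tested fell in both genotypes, at -1.71 to -0.81 in KO denervated, -0.04 to 0.28 in WT denervated, 0.45 to 1.20 in KO control and 1.1 to 1.88 in WT control muscle. Schwann cell markers fell in 4 of 6 in both genotypes, and macrophage markers rose in 3 of 7 in KO and 1 of 7 in WT. The part of these markers in the chaperone results was not tested.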

How the data were processed

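The authors deposited scanner files of intensity per spot. Per the file headers, this signal is background-subtracted and detrended, with Feature Extraction 10.7.3.1, whereas the submitters' processing notes name 10.5.1.1. Their deposited value table of intensity, whose normalization is not given in the sources used here, served as an alternative. Control spots were left out, outlier spots set missing and spots of a probe averaged. The log2 signal minus each array's 75th percentile was used. Probes were kept when well above background on all 3 arrays of a group, and the brightest stood for its gene. Probe positions are on build mm8, as in the files.

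All 12 arrays were fitted by lmFit and eBayes of limma 3.58.1, run in R 4.3.3 (4 group means, two-sided, 8 residual degrees of freedom), with Benjamini-Hochberg adjustment over 15226 genes in each of 5 comparisons. The smallest p of an exact permutation test between groups of 3 is 0.1, and none was used. The array number limits precision. The fit was checked on simulated data. Figures were drawn with matplotlib 3.10.9. Tables were handled with numpy 2.4.6 and pandas 2.3.3 under Python 3.11.15.

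Deviations of WT denervated and WT control arrays of the same number had correlations of 0.304, 0.107 and 0.232, and the first of these pairs also shared slide 1. KO arrays of the same number gave 0.0899, 0.0152 and 0.175. Values as high came from arrays of different genotype. WT denervated 2 with KO denervated 2, on the same slide, gave 0.299, and WT control 3 with KO denervated 2, on different slides, gave 0.231. These correlations cannot settle whether the numbers pair the arrays. The main fit was therefore unpaired, and the number was used as a block in an alternative. The alternatives were another scaling (quantile, array median), normexp background correction with an offset of 50, the filter on dim probes, slide or replicate number as a block, gene naming, averaging of probes, the authors' table, and each array left out.

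Members and lists were chosen with earlier results of these data known. Named were a panel, of which 24 genes were measured, the 8 largest called rises and falls in each comparison among members well above background on all arrays compared, members of a class described as a whole, bounds for genes dim on every array of a group, and up to 4 genes per partner list by smallest adjusted p, with Bag3, Hsf1, Stub1 and Unc45b. A further 10 genes that took a family name only later, 9 of them tested, fall outside the rule.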

Additional observations from a re-analysis of the deposited data

How the results depend on the processing

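The number of members called for denervation was 35 in KO and 36 in WT, and ran from 27 to 37 and from 25 to 37 with 1 array left out. Normexp background correction gave 12 in each. For KO against WT in denervated muscle the count was 8, with 2 after quantile normalization, 0 after normexp, 2 without the filter on dim probes, 4 from the authors' table, and 1 to 7 with 1 array left out. For KO against WT in control muscle it was 0 in every alternative, and for the difference of responses 0, or 0 to 1 with 1 array left out. The causes were not tested. With the replicate number as a block, the counts were 37 in KO, 32 in WT, 6 for KO against WT in denervated muscle and 0 for the other comparisons. The block ended the WT calls of Hspb3, Hspa14, Dnajc9 and Dnajc16, the KO call of Hsp90b1 (adjusted p = 0.0501) and, between denervated KO and WT, those of Hspb1 (adjusted p = 0.0806) and Dnaja4 (adjusted p = 0.0511), and it added Hspa1a, Hsp90ab1 and Hsph1 in KO (adjusted p 0.0466, 0.0423 and 0.0264). With the slide as a block, the counts were 34 in KO, 25 in WT, 7 for KO against WT in denervated muscle and 0 for the other comparisons. Of single genes, 2 changed sign past the threshold: Hspa8 in KO was 0.35 in the authors' table, and Cryab in WT was -0.61 with its probes averaged. Calls kept in every alternative were 12 in KO, 11 in WT and 0 between denervated KO and WT. Without the filter, the median over all genes moved to -0.33 for KO and -0.19 for WT denervation and to -0.10 for the difference of responses.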
